A study of Mus musculus with 9 samples.

Results

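RNA from mouse oesophageal epithelial organoids labelled PCN was compared with RNA from organoids labelled PN, gene by gene. The genes described are all 3609 genes that the authors listed for this pair of groups, out of 8742 that they listed in any of their 3 comparisons. A gene entered the list through the authors' own test (adjusted p under 0.05), which took in 24.5% of the 14758 genes they adjusted over, 12.6% of them higher in PCN and 11.8% lower. Each group had 3 libraries of total RNA from organoids collected on day 7 after seeding, with no treatment. By the labels, Trp53 and Notch1 were knocked out in PN, and Trp53, Notch1 and Cdkn2a in PCN, so that both groups shared the loss of Trp53 and Notch1. Wild-type (WT) organoids, also 3 libraries, give the level without any edit and are set beside the other groups below. The labels do not say how the knockouts were made, whether a line was 1 clone, the age or sex of the animals, or whether the 3 replicates were grown apart. The p-values therefore measure the spread between these libraries, which may be technical, and line and genotype cannot be told apart.

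The oesophagus is lined by a stratified squamous epithelium. Basal cells that hold keratins 5, 14 and 15 and anchor to the basement membrane divide there, and suprabasal cells make keratins 4 and 13 and, later, cornified envelope proteins. Notch1 signalling drives basal cells towards differentiation, p53 stops the cell cycle or kills cells after damage, and Cdkn2a encodes p16Ink4a, which blocks the cyclin D kinases, and p19Arf, which stabilises p53. NF-kB is a family of transcription factors that switches on cytokine and chemokine genes, and it is held in the cytoplasm by IkB proteins until a signal such as TNF arrives.

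Levels are in CPM, counts per 1000000 of a library total recovered from the deposited values, and means are given ± SD over 3 libraries. Differences are log2 fold changes of PCN over PN ± SE, from edgeR's quasi-likelihood F test on the raw counts with Benjamini-Hochberg adjustment over 14758 genes. Counts over the genes listed in any comparison ran from 11763682 to 13289732 per library in PN and from 12004122 to 13653905 in PCN. The epithelial label was looked at through keratins: the basal keratin gene Krt5 stood at 6629 ± 229 CPM in PN and 6028 ± 319 CPM in PCN. In bulk RNA, fewer cells of a kind and less RNA per cell cannot be told apart.

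The targeted genes were looked at first. Trp53 (chromosome 11, 69580359 to 69591873), which the authors did not list for this pair, stood at 120.1 CPM in WT, 2.61 ± 0.55 CPM in PN and 3.07 ± 0.77 CPM in PCN. Its RNA was low in both edited groups and their libraries did not separate (log2 0.25 ± 0.25, unadjusted p = 0.318 in a fit with added genes). Notch1 (chromosome 2, 26457903 to 26516663) was measured at 140.5, 154 and 148 CPM in the PN libraries and 70.5, 76.9 and 66.5 CPM in the PCN libraries, against 244 ± 32 CPM in WT. All 3 PCN libraries lay below all 3 PN libraries (log2 fold change -1.05 ± 0.06, adjusted p = 9.25e-15), although both groups carry the same Notch1 label. Cdkn2a (chromosome 4, 89274471 to 89294653) was at 22.2, 21.5 and 22.7 CPM in the PN libraries and 62.4, 63.1 and 70.2 CPM in the PCN libraries, with 8.996 ± 2.2 CPM in WT. The RNA of the gene labelled as knocked out in PCN was thus higher there than in PN (log2 fold change 1.56 ± 0.07, adjusted p = 1.82e-16). A gene count cannot show whether these transcripts were intact, nor part p16Ink4a from p19Arf, and PCN below means the libraries labelled PCN. Mtap, the neighbour of Cdkn2a that encodes a methionine salvage enzyme, went from 308 ± 14 CPM in PN to 223 ± 11 CPM in PCN (log2 fold change -0.47 ± 0.05, adjusted p = 5.15e-09), with 232 CPM in WT. Cdkn2b, on the other side, encodes p15Ink4b and was not listed: it stood at 53.3 CPM in WT, 19.3 CPM in PN and 16.2 CPM in PCN.

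Of the 3609 genes, 3546 passed a filter on low counts, and 3507 of those (98.9%) passed the test again, 1809 higher (51.0%) and 1698 lower (47.9%) in PCN. These shares follow from how the genes were listed and are the background for every count below. In 3530 genes (97.8%) no PN library overlapped a PCN library. Most differences were small: the median size of the log2 difference was 0.46, and 380 genes rose and 298 fell by at least 2-fold. The share that rose depended on the chromosome. Outside chromosomes 12 and 14, with 2973 listed genes, 1464 of 2917 fitted genes (50.2%) were higher and 1418 (48.6%) lower, with a median log2 fold change of 0.14. Of them, 332 rose and 200 fell by at least 2-fold. The share higher among the called genes ran from 37.0% on chromosome 19 to 68.3% on chromosome 13, the Y chromosome and the mitochondrial genome aside.

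On chromosome 12, 302 genes were listed, and 275 of the 300 fitted (91.7%) were lower in PCN while 23 (7.67%) were higher. The median log2 fold change was -0.89 and 96 genes fell by at least 2-fold. On chromosome 14, with 334 listed genes, 322 of the 329 fitted (97.9%) were higher and 5 (1.52%) lower. Their median was 0.61, and 43 rose by at least 2-fold. Listing was also denser there: 44.6% of the annotated protein-coding genes of chromosome 12 and 36.1% of those of chromosome 14 were listed, against 10.97% to 17.3% on the other 18 chromosomes.

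The shift ran along nearly the whole of both chromosomes. In bins of 10 Mb, the median of chromosome 12 lay between -1.02 and -0.67 from its start up to 100 Mb and was 0.23 and 0.18 in the last 2 bins. Before 95 Mb, 263 of the 270 listed genes were lower, with a median of -0.92, whereas from 95 Mb onward 18 of 32 were higher and 12 lower. On chromosome 14 the medians of the bins lay between 0.44 and 0.76 from one end to the other. The boundary at 95 Mb was drawn after its position had been seen in these data.

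**Figure D1:**
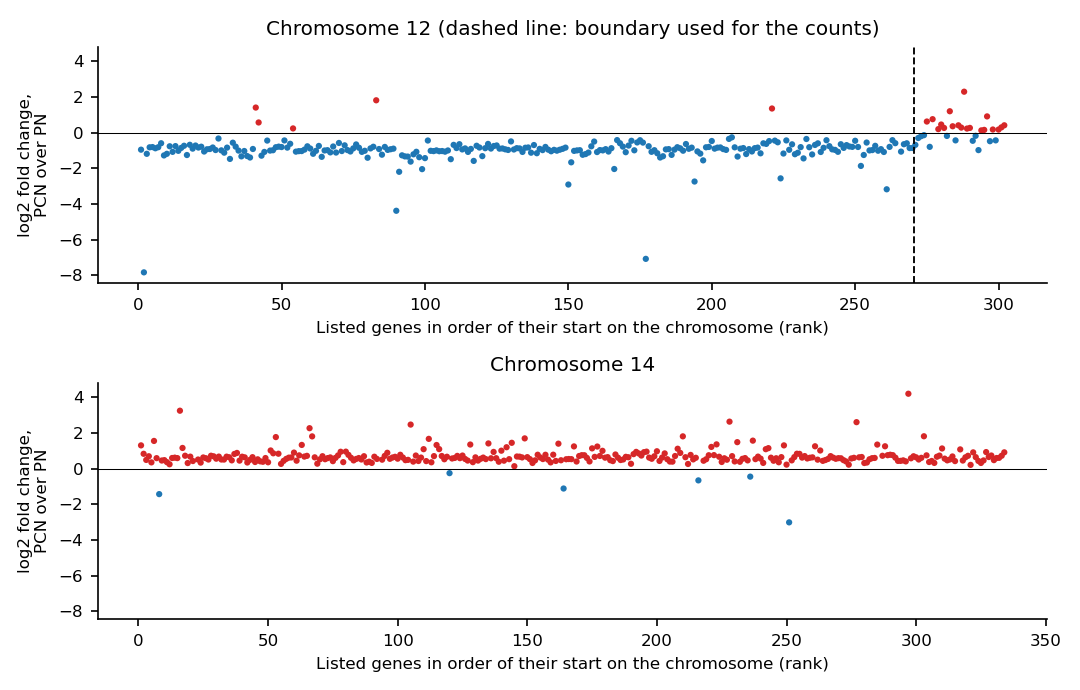
Log2 fold change of PCN over PN (vertical axis) against gene rank (horizontal axis) for each fitted gene of chromosomes 12 and 14. Genes, called or not, are ranked by their start among the listed genes of the chromosome, so distances in Mb are not shown. The points of chromosome 12 lie mostly below 0 until the dashed line, which marks the boundary at 95 Mb. After it they lie on both sides of 0, and those of chromosome 14 lie mostly above 0.

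Over the genes that have WT counts, the 2 shifts lay in different groups. WT counts exist only for genes that the authors listed in a comparison with WT, and 569 of the 3609 genes have none. Taken were genes listed for PCN against PN that have WT counts, and genes listed in both comparisons with WT. The ratios below are therefore over genes selected for a difference from WT and partly for the difference between PCN and PN itself. All had at least 5 CPM in WT. Over 259 genes of chromosome 12 before 95 Mb with counts in all 9 libraries, the median ratio to the WT mean was 0.932 to 0.954 in the PN libraries and 0.496 to 0.526 in the PCN libraries. Here the PCN libraries were the ones away from WT. Over 306 genes of chromosome 14, the median ratio was 0.652 to 0.670 in the PN libraries and 0.967 to 0.998 in the PCN libraries, so there the PN libraries were the ones away from WT. Over 5042 genes outside both chromosomes it was 0.970 to 0.978 in the PN libraries and 0.982 to 1.00 in the PCN libraries. Of 5 listed genes of the Y chromosome, the 4 that were fitted moved too, with a median ratio of 0.404 to 0.443 in PN and 1.24 to 1.38 in PCN. Kdm5d, a histone demethylase gene of the Y, was at 12.1, 11.96 and 9.15 CPM in the PN libraries and 38.3, 39.7 and 36.8 CPM in the PCN libraries, with 28.8 CPM in WT (log2 fold change 1.79 ± 0.10, adjusted p = 7.30e-15). Uty, Ddx3y and Eif2s3y rose by log2 1.74, 1.51 and 1.498. The cause of these shifts was not tested.

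Named genes of chromosome 12 show both the common shift and larger changes. Hif1a, the oxygen-regulated transcription factor, went from 574 ± 36 CPM in PN to 381 ± 21 CPM in PCN (log2 fold change -0.59 ± 0.05, adjusted p = 1.90e-10). Rrm2, a subunit of ribonucleotide reductase, was at 189, 169 and 178 CPM in PN and 103, 101 and 95.7 CPM in PCN (log2 fold change -0.84 ± 0.05, adjusted p = 1.30e-13), and Adam17, the sheddase that releases TNF and EGF ligands, fell (log2 -0.78). Gpx2, a glutathione peroxidase, dropped from 1206 to 459.8 CPM and Lamb1, a laminin chain, from 83.6 to 32.7 CPM, with log2 fold changes of -1.39 ± 0.04 and -1.35 ± 0.06. These 2 lay below the median of their chromosome. The largest falls that the naming rule took were those of Ism2 (log2 -3.17, 9.36 to 1.04 CPM), the kinase gene Prkd1 (log2 -2.19), the complex I assembly gene Nubpl (log2 -2.04), the flippase subunit gene Tmem30b (log2 -2.04), the glycogen phosphorylase gene Pygl (log2 -1.66) and the adaptor gene Ap4s1 (log2 -1.62).

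A few genes of chromosome 12 went the other way. Tnfaip2, a gene that TNF and NF-kB induce, was at 76.6, 85.0 and 77.9 CPM in the PN libraries and 377, 393 and 406 CPM in the PCN libraries, and at 265 ± 19.96 CPM in WT. It lies beyond 95 Mb (chromosome 12, 111442469 to 111455018), and its 3 PCN libraries were far above PN and also above WT (log2 fold change 2.29 ± 0.05, adjusted p = 1.14e-23). Before 95 Mb, 5 genes were higher: Gm49331, Bnip3l-ps, Id2, Sostdc1 and Papln. Sostdc1, a secreted BMP and Wnt antagonist, rose from 1.27 to 4.48 CPM and the matrix gene Papln from 5.18 ± 0.52 CPM in PN to 13.3 ± 0.90 CPM in PCN (log2 fold change 1.35 ± 0.13, adjusted p = 2.54e-09). Id2, an inhibitor of basic helix-loop-helix factors, rose by log2 0.24 only (adjusted p = 0.00539), a call lost without PN replicate 2 (adjusted p = 0.0535).

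On chromosome 14 the largest rise was that of Dach1 (chromosome 14, 97786853 to 98169765), a transcription factor gene, at 3.50, 3.89 and 2.86 CPM in the PN libraries and 59.1, 69.5 and 58.9 CPM in the PCN libraries and 6.20 CPM in WT (log2 fold change 4.20 ± 0.11, adjusted p = 1.12e-21). Its level in every PCN library was above every PN library and above the WT mean. Fam167a, Siah3, Phf11d, Chdh, the choline dehydrogenase gene, and Zcchc24 were the others that the naming rule took, with log2 fold changes of 2.63, 2.60, 1.81, 1.81 and 1.77. Wnt5a, a ligand of non-canonical Wnt signalling, rose from 39.6 ± 0.88 CPM in PN to 99.4 ± 2.1 CPM in PCN (log2 fold change 1.33 ± 0.06, adjusted p = 6.61e-17) and was at 115 CPM in WT. Rb1, the retinoblastoma gene, rose from 41.9 ± 3.9 CPM in PN to 61.6 ± 4.1 CPM in PCN (log2 fold change 0.55 ± 0.07, adjusted p = 4.16e-07), near the median of the chromosome. The 5 genes that were lower were Cadps (log2 -1.43), a vesicle priming gene, the amino acid transporter gene Slc7a8 (log2 -1.11, 152 to 70.3 CPM), Tnfrsf19 (log2 -0.66), the Wnt receptor gene Fzd3 (log2 -0.45) and Lgals3 (log2 -0.25), which encodes galectin-3.

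All counts of gene groups from here on are over chromosomes other than 12 and 14 unless said otherwise, against the background of 50.2% higher and 48.6% lower. The groups are hand-made lists of genes, and members without counts in any deposited table are not covered.

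Among protein-coding genes with at least 5 CPM in the higher group, the largest rise outside the 2 chromosomes was that of Bhlhe22 (chromosome 3, 18054174 to 18057517), a basic helix-loop-helix gene known from neurons, at 1.36, 1.001 and 1.27 CPM in the PN libraries and 45.2, 50.2 and 53.4 CPM in the PCN libraries and 7.27 ± 2.1 CPM in WT. The groups were far apart (log2 fold change 5.34 ± 0.13, adjusted p = 7.43e-23). Armcx2, an X-linked armadillo repeat gene, rose by log2 5.17 ± 0.40 from very few reads in PN (0.136 to 5.02 CPM), and by 6.33 without PN replicate 2. Fgf13, which encodes an intracellular fibroblast growth factor homologue that binds sodium channels, rose from 0.167 ± 0.084 CPM in PN to 5.03 ± 0.71 CPM in PCN (log2 fold change 4.83 ± 0.36, adjusted p = 6.35e-12), with 0.0895 CPM in WT. Casp4, the mouse caspase-11 gene, encodes a protease that senses lipopolysaccharide in the cytosol. It was at 0.356, 0.471 and 0.476 CPM in the PN libraries and 9.46, 8.38 and 9.50 CPM in the PCN libraries, with 0.357 CPM in WT (log2 fold change 4.37 ± 0.24, adjusted p = 1.26e-14). Its relative Casp12 rose by log2 4.29, or by 5.02 without PN replicate 3.

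The naming rule also took 2 complement genes. C3 (chromosome 17, 57203970 to 57228136), the central protein of the complement cascade, was at 3.74, 2.53 and 3.23 CPM in the PN libraries and 42.7, 40.9 and 36.9 CPM in the PCN libraries, and at 7.11 ± 0.81 CPM in WT. C1s1 (chromosome 6, 124530345 to 124542359), which encodes the C1s protease at the start of the classical pathway, was at 6.23, 6.36 and 6.87 CPM in the PN libraries and 81.4, 83.7 and 73.3 CPM in the PCN libraries, and at 3.86 ± 0.62 CPM in WT. For both genes the lowest PCN library was several times above the highest PN library (log2 fold change 3.66 ± 0.12, adjusted p = 7.15e-20 for C3, and log2 fold change 3.61 ± 0.09, adjusted p = 3.94e-23 for C1s1). Steap4, a metalloreductase gene that inflammatory cytokines induce, rose from 0.356 ± 0.21 CPM in PN to 6.56 ± 0.69 CPM in PCN (log2 fold change 4.16 ± 0.30, adjusted p = 3.54e-12).

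The other large rises fell in several functions. Crabp2, which carries retinoic acid to the nucleus, was at 3.68, 4.12 and 2.27 CPM in the PN libraries and 41.3, 31.5 and 38.0 CPM in the PCN libraries and 22.3 CPM in WT (log2 fold change 3.47 ± 0.16, adjusted p = 8.97e-12). Sirpa, the receptor of CD47, rose from 2.86 to 27.1 CPM (log2 3.25), Glul, the glutamine synthetase gene, from 10.9 to 99.96 CPM (log2 3.19), and the zinc finger gene Zfp422 from 0.819 to 9.18 CPM (log2 3.48). Gxylt2, which adds xylose to Notch-type EGF repeats, was at 3.62, 2.59 and 2.38 CPM in PN and 23.1, 24.5 and 21.6 CPM in PCN, with 24.1 CPM in WT (log2 fold change 3.01 ± 0.14, adjusted p = 2.26e-16). As a ratio to WT, the PN mean was the farther one for Crabp2, Gxylt2 and Zfp422, and the PCN mean for Sirpa, Glul and C3. Itga2, the collagen-binding integrin subunit, rose from 2.47 ± 0.33 CPM in PN to 19.6 ± 2.3 CPM in PCN (log2 fold change 2.98 ± 0.15, adjusted p = 9.28e-16), and Sema6d, a membrane semaphorin, by log2 3.05, or by 3.71 without PN replicate 2.

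Under the same limit of 5 CPM, the largest fall was that of Hoxc8 (chromosome 15, 102990607 to 102994111), a homeobox gene of positional identity along the body axis, at 68.8, 66.9 and 66.2 CPM in the PN libraries and 2.77, 3.04 and 2.74 CPM in the PCN libraries and 27.0 ± 1.6 CPM in WT. The highest PCN library was far below the lowest PN library (log2 fold change -4.56 ± 0.10, adjusted p = 6.69e-24). Its neighbour Hoxc6 (chromosome 15, 102998257 to 103011881) was at 14.7, 15.6 and 11.8 CPM in PN and 1.98, 1.66 and 2.31 CPM in PCN, with 24.7 CPM in WT (log2 fold change -2.81 ± 0.17, adjusted p = 8.06e-14). Further along the same cluster, Hoxc5 fell from 169.6 ± 2.7 CPM in PN to 126 ± 11 CPM in PCN (log2 -0.43), and Hoxc4 rose from 129 ± 0.51 CPM in PN to 149 ± 3.7 CPM in PCN (log2 0.21). Hoxa5, of another cluster, rose by log2 0.43 from 10.5 to 14.3 CPM. The change thus differed in size and direction within the HoxC cluster, and 7 other Hox genes with counts were not listed.

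Krt23, a keratin gene of simple epithelia, was at 28.4, 24.3 and 30.9 CPM in the PN libraries and 2.43, 1.32 and 2.95 CPM in the PCN libraries and 5.26 CPM in WT (log2 fold change -3.63 ± 0.17, adjusted p = 9.66e-13). Wif1, a secreted inhibitor of Wnt ligands, was at 20.1, 18.0 and 20.1 CPM in the PN libraries and 3.91, 3.79 and 3.38 CPM in the PCN libraries, and no WT library had a count (up to 0.0670 CPM). In both genes PN lay far above WT and PCN was nearer to WT (log2 fold change -2.39 ± 0.13, adjusted p = 6.43e-15 for Wif1). The PCN libraries lay below the WT mean for Krt23 but were still well above WT for Wif1. Nrip3 fell from 105 to 15.1 CPM (log2 -2.80) and stood at 20.5 CPM in WT, the tumour-associated kinase gene Dclk1 from 13.7 to 2.13 CPM (log2 -2.67), and Serpine2, which encodes a protease inhibitor, from 45.2 to 10.3 CPM (log2 -2.13). The others were Cyfip2, Rtn2, Adm2, Xpnpep2, Pdzrn4 and Msrb3, with log2 fold changes from -3.11 for Cyfip2 to -2.20 for Msrb3.

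**Figure D2:**
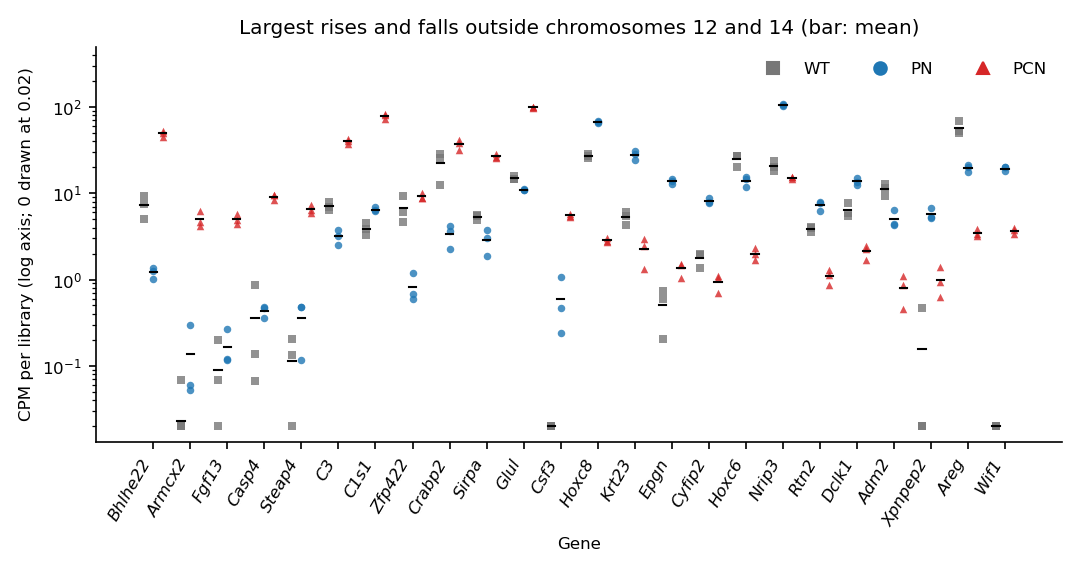
CPM of each library (log axis, with 0 drawn at 0.02) for the 12 largest rises and 12 largest falls outside chromosomes 12 and 14 among protein-coding genes with at least 5 CPM in the higher group, with PN, PCN and WT as separate points. Bhlhe22 and Hoxc8 lead these rises and falls. The PN and PCN points of each gene lie apart because only called genes without overlap between the libraries were taken.

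Several gene groups had calls mostly in 1 direction: inflammatory genes were higher, and detoxifying, amino acid, ribosomal and respiratory chain genes were lower. Of 20 listed chemokine and cytokine genes, 18 rose and 2 fell, with a median log2 fold change of 1.42 and 13 rises of at least 2-fold. Of 15 listed NF-kB pathway genes, 13 rose, 1 fell and 1 was filtered out (median 0.75), of 16 interferon response genes 16 rose and none fell (0.67), and of 31 NRF2 and glutathione genes 25 fell and 5 rose (-0.42). Of 22 genes of the amino acid and endoplasmic reticulum stress response, 20 fell and 1 rose (-0.48), and of 35 ribosomal protein genes 31 fell and none rose (-0.20).

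**Figure D3:**
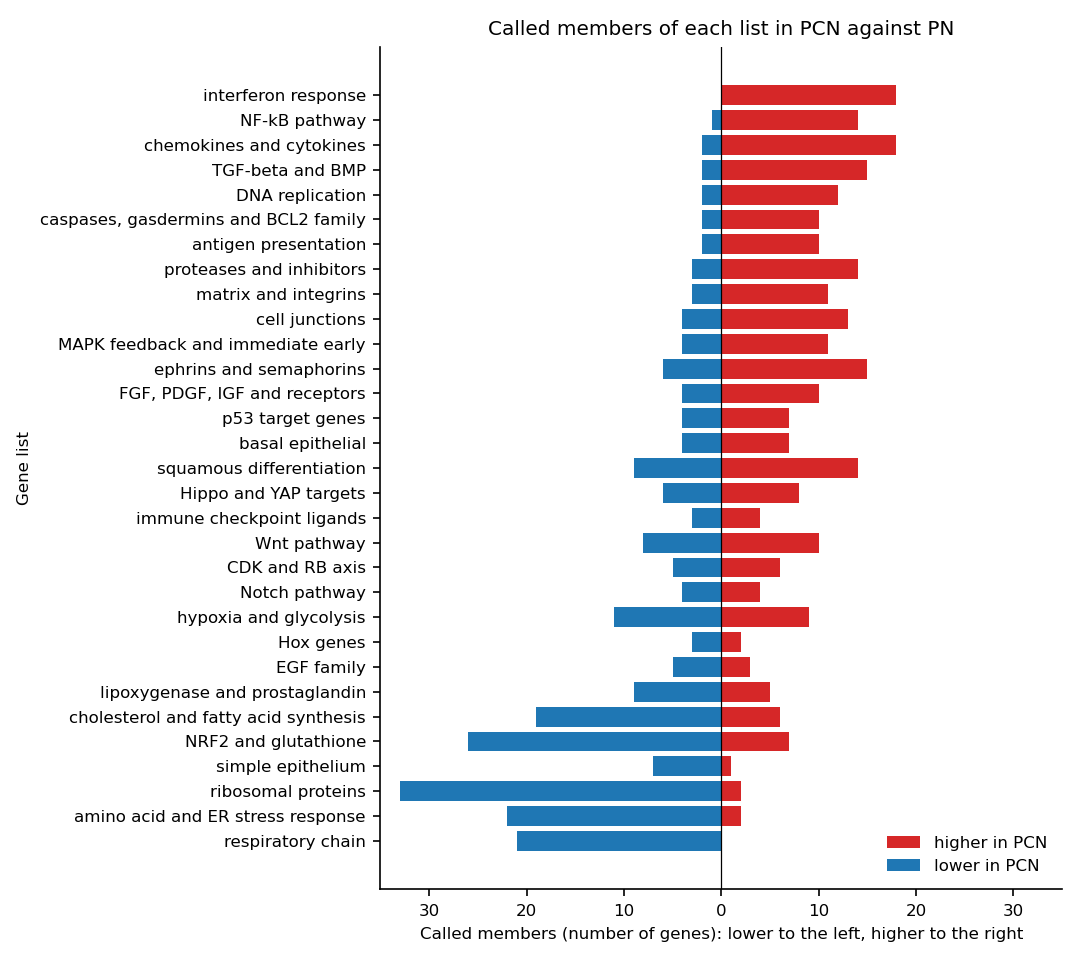
Number of called genes higher (right) and lower (left) in PCN for each gene list with at least 5 fitted members. Unlike the counts in the text, the bars cover all chromosomes, 12 and 14 included. Chemokines and cytokines stand at 18 higher and 2 lower and interferon response at 18 and 0. NRF2 and glutathione stand at 7 and 26, and ribosomal proteins at 2 and 33.

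Of 47 chemokine and cytokine genes in the list, 24 had counts in a deposited table and 20 were listed for this pair. Tnf (chromosome 17, 35199381 to 35202007), the cytokine that activates NF-kB through its receptors, was at 0.297, 0.177 and 0.106 CPM in the PN libraries and 3.76, 3.79 and 5.64 CPM in the PCN libraries, and at 0.113 CPM in WT. Its RNA was scarce in PN and in WT, and no PCN library came near them (log2 fold change 4.48 ± 0.38, adjusted p = 8.69e-11). Csf3, which encodes the granulocyte growth factor G-CSF, was at 0.237, 0.471 and 1.06 CPM in the PN libraries and 5.35, 5.80 and 5.48 CPM in the PCN libraries, with no count in WT, which allows up to 0.0670 CPM over the 3 libraries. Its log2 fold change was 3.18 ± 0.30, and 3.94 without PN replicate 3.

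Chemokine genes moved together. Cxcl2, which draws neutrophils, was at 0.593, 0.294 and 0.264 CPM in the PN libraries and 3.42, 1.95 and 3.44 CPM in the PCN libraries, with 0.156 CPM in WT (log2 fold change 2.94 ± 0.37, adjusted p = 2.11e-07), and its neighbour on chromosome 5, Cxcl1, at 15.1, 13.2 and 13.4 CPM in PN and 27.5, 27.0 and 27.4 CPM in PCN, with 1.47 CPM in WT (log2 fold change 0.98 ± 0.09, adjusted p = 9.67e-10). Cxcl1 was thus already above WT in PN and higher again in PCN. Ccl20, which draws T helper 17 cells and dendritic cells, was at 0.415, 0.942 and 0.687 CPM in PN and 3.42, 3.27 and 4.19 CPM in PCN (log2 fold change 2.40 ± 0.30, adjusted p = 1.61e-07), and Ccl2, which draws monocytes, at 0.830, 0.942 and 1.11 CPM in PN and 3.76, 2.98 and 3.33 CPM in PCN (log2 fold change 1.795 ± 0.27, adjusted p = 3.76e-06). In each of these genes the 3 PCN libraries lay above the 3 PN libraries.

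Growth factors of leukocytes and interleukins followed the same direction. Csf1, the macrophage growth factor gene, rose from 4.58 ± 1.2 CPM in PN to 14.8 ± 2.0 CPM in PCN (log2 fold change 1.69 ± 0.16, adjusted p = 1.74e-09), with 3.51 CPM in WT. Il23a, Il7, Il1a and Il34 rose by log2 1.92, 1.61, 1.57 and 1.14, all from under 1 CPM in PN. Il1f9, an interleukin-36 gene of squamous epithelia, rose from 19.2 ± 0.40 CPM in PN to 43.0 ± 1.2 CPM in PCN (log2 fold change 1.16 ± 0.08, adjusted p = 4.29e-13), but stood at 84.0 ± 6.3 CPM in WT, above both. Lif, Cxcl16 and Tslp rose by log2 0.89, 1.28 and 0.81. The 2 genes that fell were Il33, an alarmin stored in the nucleus, from 13.3 ± 2.1 CPM in PN to 5.69 ± 0.74 CPM in PCN (log2 fold change -1.23 ± 0.14, adjusted p = 6.45e-08) with 519 CPM in WT, and Il1rn, the interleukin-1 receptor antagonist, from 36.1 to 30.3 CPM (log2 -0.25).

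The NF-kB subunits themselves rose modestly. Relb rose from 12.9 ± 1.8 CPM in PN to 22.5 ± 0.20 CPM in PCN (log2 fold change 0.81 ± 0.10, adjusted p = 3.70e-07), Nfkb2 by log2 0.41, Nfkb1 by log2 0.32 and Rela by log2 0.32. Several genes that NF-kB is known to induce and that restrain it also rose. Tnfaip3, the ubiquitin-editing enzyme A20, was at 17.0, 14.8 and 14.2 CPM in the PN libraries and 33.2, 39.9 and 32.1 CPM in the PCN libraries, with 17.9 CPM in WT (log2 fold change 1.19 ± 0.10, adjusted p = 6.33e-11). Bcl3, an IkB-like cofactor, was at 22.1, 22.5 and 21.8 CPM in PN and 51.1, 50.3 and 55.9 CPM in PCN, with 70.4 CPM in WT (log2 fold change 1.24 ± 0.07, adjusted p = 3.98e-14), and Birc3, a ubiquitin ligase of the TNF receptor complex, rose from 2.70 to 8.45 CPM (log2 1.65). Among them PN lay below WT for Bcl3, while WT and PN were close for Tnfaip3 and Birc3.

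Icam1, the adhesion molecule that binds leukocytes, was at 20.5, 20.8 and 22.2 CPM in PN and 55.4, 54.1 and 57.0 CPM in PCN, with 26.4 CPM in WT (log2 fold change 1.39 ± 0.07, adjusted p = 2.33e-15). Lcn2, an iron-binding antibacterial protein gene, rose from 0.661 ± 0.076 CPM in PN to 4.18 ± 2.0 CPM in PCN (log2 fold change 2.66 ± 0.34, adjusted p = 1.19e-06), and Nfkbie and Nfkbiz, of the IkB family, by log2 1.11 and 0.65. Ptgs2, the inducible cyclooxygenase gene, was the 1 member outside chromosomes 12 and 14 that fell (18.9 to 9.96 CPM, log2 -0.92). Nfkbia, which encodes the main IkB protein, lies on chromosome 12 and was not listed: it stood at 77.9 CPM in WT, 119 CPM in PN and 121 CPM in PCN.

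**Figure D4:**
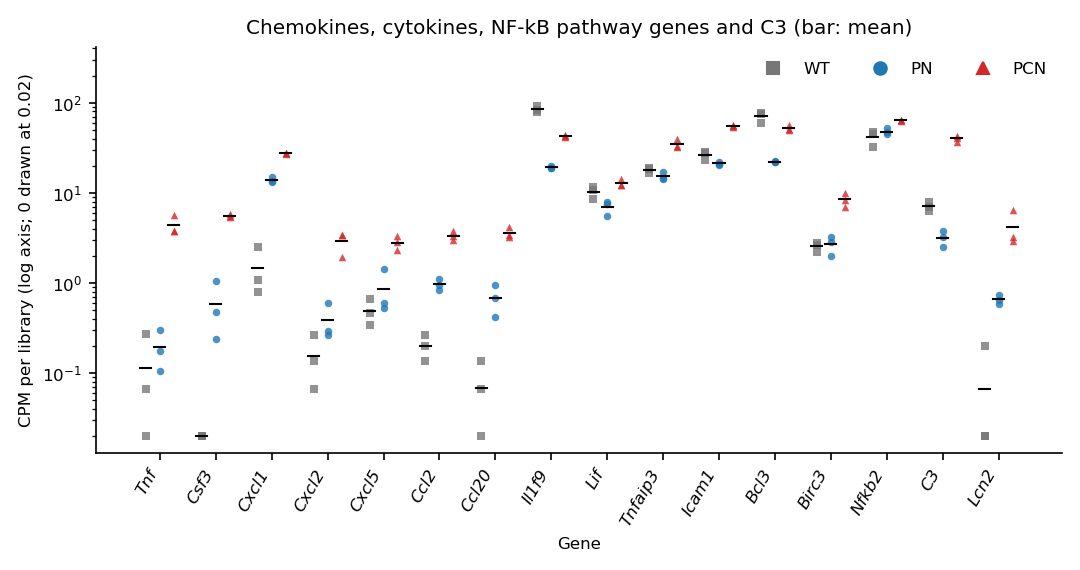
CPM of each library (log axis, with 0 drawn at 0.02) for 16 chemokine, cytokine, NF-kB pathway and complement genes, with points for the 3 libraries of WT, PN and PCN and a bar at each group's mean. Every PCN point lies above every PN point of the same gene, and 97.8% of all listed genes had no overlap between PN and PCN.

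The promoter windows of these genes are shown because they rose together and NF-kB is known to bind the letters GGGANNNNCC. RefSeq windows of 250 bases before to 50 bases after the start (GRCm38.p6) were available for 20 of the 32 chemokine, cytokine and NF-kB pathway genes that were higher, chromosome 12 included. On either strand, 13 of the 20 (65.0%) held these letters, against 5528 of all 27025 windows (20.5%). The lists were hand-made around NF-kB and genes that it is known to induce, so the higher share may follow from their choice alone. Windows of members that were not higher were not scored. A match is a description of the letters and not of a bound site. Below, 50 bases around the match are given 5′ to 3′ on the strand of the gene, with the match in capitals.
Cxcl2 (chr5:90903782-90903831, + strand): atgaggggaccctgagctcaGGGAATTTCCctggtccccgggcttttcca
Cxcl1 (chr5:90891154-90891203, + strand): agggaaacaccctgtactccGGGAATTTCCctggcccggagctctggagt
Ccl20 (chr1:83116665-83116714, + strand): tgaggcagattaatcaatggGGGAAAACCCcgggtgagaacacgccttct
Nfkb2 (chr19:46304678-46304727, + strand): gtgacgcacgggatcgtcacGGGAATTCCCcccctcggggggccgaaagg

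Interferon response genes rose in smaller steps, and none of the 18 listed over all chromosomes was lower. Parp14 was at 6.47, 9.89 and 10.6 CPM in PN and 25.3, 26.5 and 21.7 CPM in PCN, with 7.80 CPM in WT (log2 fold change 1.44 ± 0.14, adjusted p = 1.81e-07), and Gbp7, a guanylate-binding protein gene, rose from 0.633 ± 0.23 CPM in PN to 1.85 ± 0.78 CPM in PCN (log2 fold change 1.53 ± 0.38, adjusted p = 0.00249). The RNA sensors Ddx58 (RIG-I) and Ifih1 (MDA5) rose by log2 0.81 and 0.48, the transcription factor genes Irf1, Irf5 and Stat3 by log2 0.62, 0.76 and 0.34, and the receptor genes Ifngr1 and Ifnar2 by log2 0.77 and 0.65. Irf9, part of the type I interferon signalling complex, lies on chromosome 14 and rose by log2 1.000. Of the listed antigen presentation genes, 8 rose and 2 fell outside chromosomes 12 and 14. Psmb10, a catalytic subunit of the immunoproteasome, rose from 15.01 ± 2.1 CPM in PN to 29.1 ± 2.3 CPM in PCN (log2 fold change 0.95 ± 0.10, adjusted p = 1.10e-08), H2-D1 from 219 to 276 CPM (log2 0.33) and B2m by log2 0.30, while the class II gene H2-Ab1 fell from 20.5 ± 1.2 CPM in PN to 11.2 ± 0.19 CPM in PCN (log2 fold change -0.87 ± 0.10, adjusted p = 5.63e-08). H2 genes are near-identical copies, so their counts are uncertain.

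Among caspases, gasdermins and the BCL2 family, 8 genes rose and 2 fell. Besides Casp4 and Casp12, Gsdmc rose from 2.18 ± 0.42 CPM in PN to 7.74 ± 1.4 CPM in PCN (log2 fold change 1.84 ± 0.20, adjusted p = 1.70e-08) and its close relative Gsdmc2 fell from 1.78 ± 0.16 CPM in PN to 0.646 ± 0.24 CPM in PCN (log2 fold change -1.43 ± 0.34, adjusted p = 0.00159), a pair that may share reads. Bid, which links death receptors to mitochondria, rose from 7.96 to 17.7 CPM (log2 1.14), and Casp1 rose by log2 0.29.

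TGF-beta and BMP genes rose in 11 cases and fell in 2, with a median of 0.51. The inhibitors of differentiation led: Id1 was at 41.3, 34.7 and 43.5 CPM in the PN libraries and 134, 139 and 175 CPM in the PCN libraries, with 35.6 CPM in WT, and Id3 at 32.0, 29.2 and 26.3 CPM in PN and 90.7, 104 and 132 CPM in PCN, with 5.02 CPM in WT. Both genes, which BMP signalling induces, were higher in every PCN library, with wide spread (log2 fold change 1.90 ± 0.13, adjusted p = 2.63e-05 for Id1, and log2 fold change 1.90 ± 0.17, adjusted p = 3.07e-04 for Id3). Smad6, the inhibitory Smad of BMP signalling, rose from 2.14 ± 0.40 CPM in PN to 6.44 ± 0.57 CPM in PCN (log2 fold change 1.59 ± 0.20, adjusted p = 2.02e-07), Inhbb from 4.65 to 9.29 CPM (log2 0.99) and Ltbp4 from 198 to 351 CPM (log2 0.83). Bmp7 and Ltbp3 were the 2 that fell (log2 -0.42 and -0.48).

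Basement membrane and integrin genes rose in 11 cases and fell in 2, with a median of 0.81. Hspg2, which encodes perlecan, was at 3.14, 3.59 and 3.91 CPM in the PN libraries and 21.7, 20.6 and 21.1 CPM in the PCN libraries, with 4.10 CPM in WT (log2 fold change 2.57 ± 0.13, adjusted p = 9.28e-16). Lamb2 rose from 15.8 ± 0.82 CPM in PN to 43.7 ± 1.5 CPM in PCN (log2 fold change 1.47 ± 0.08, adjusted p = 7.13e-15), whereas its counterpart Lamb1, on chromosome 12, fell. Beside Itga2, Itga1, the other collagen-binding subunit, rose from 1.83 to 6.14 CPM (log2 1.74), Itgb5 by log2 0.99 and Itgb6 by log2 0.84. Col18a1 fell from 453 ± 24 CPM in PN to 261 ± 15 CPM in PCN (log2 fold change -0.80 ± 0.05, adjusted p = 2.48e-13), as did Col4a5 (log2 -0.81). Of the proteases and inhibitors, 12 rose and 3 fell: the kallikreins Klk13 and Klk11 rose by log2 2.05 and 1.89, the metalloproteases Adamts15 and Adam8 by log2 2.88 and 1.29, and Serpinb1a fell from 48.2 ± 1.6 CPM in PN to 16.8 ± 2.5 CPM in PCN (log2 fold change -1.52 ± 0.09, adjusted p = 3.97e-14).

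Of the 8 listed genes of the EGF family, 3 rose and 5 fell, and ligand genes of the EGF receptor were among both the changed and the unlisted ones. Epgn, the epigen gene, was at 13.7, 12.9 and 14.8 CPM in the PN libraries and 1.04, 1.49 and 1.504 CPM in the PCN libraries, with 0.511 CPM in WT (log2 fold change -3.36 ± 0.18, adjusted p = 3.48e-15). Areg, which encodes amphiregulin, was at 17.6, 20.02 and 21.04 CPM in PN and 3.17, 3.85 and 3.33 CPM in PCN, with 57.4 CPM in WT (log2 fold change -2.51 ± 0.13, adjusted p = 5.32e-15), and Ereg at 25.1, 24.7 and 29.2 CPM in PN and 9.01, 9.53 and 10.4 CPM in PCN, with 47.2 CPM in WT (log2 fold change -1.45 ± 0.10, adjusted p = 3.23e-12). For Areg and Ereg WT was highest, PN lower and PCN lowest, while Epgn was near 0 in WT. The receptor gene Erbb3 rose by log2 0.32. The ligand genes Tgfa, Hbegf and Btc were not listed, with 88.9, 70.1 and 1.09 CPM in PN and 95.4, 71.3 and 0.866 CPM in PCN.

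Other growth factor genes mostly rose, 10 against 4. Fgfr3 was at 43.1, 44.2 and 41.3 CPM in the PN libraries and 222, 202 and 211 CPM in the PCN libraries, with 86.5 CPM in WT (log2 fold change 2.30 ± 0.06, adjusted p = 3.94e-23), and Igfbp4, an insulin-like growth factor binding protein gene, at 18.7, 19.8 and 15.3 CPM in PN and 108, 115 and 101 CPM in PCN, with 7.60 CPM in WT (log2 fold change 2.59 ± 0.08, adjusted p = 4.57e-19). In both, PCN lay far above PN and WT. Fgfr2 rose from 74.6 to 122 CPM (log2 0.71), and Kitl, the ligand of the receptor KIT, fell from 160.3 ± 14 CPM in PN to 88.7 ± 7.4 CPM in PCN (log2 fold change -0.86 ± 0.07, adjusted p = 2.33e-09). Among immediate early genes, Jun was at 16.1, 16.7 and 14.4 CPM in PN and 54.8, 58.4 and 53.3 CPM in PCN, with 59.6 CPM in WT (log2 fold change 1.82 ± 0.08, adjusted p = 4.81e-17), so that PN was the group away from WT. Fosl2 rose by log2 0.64 and Fosl1 fell (log2 -0.53).

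The Wnt genes went both ways, 9 up and 7 down. Sfrp1, a secreted Wnt antagonist, was at 41.0, 38.3 and 37.1 CPM in the PN libraries and 138, 147 and 137 CPM in the PCN libraries, with 42.5 CPM in WT (log2 fold change 1.86 ± 0.06, adjusted p = 3.19e-20), which is opposite to Wif1. The R-spondin receptor genes also split: Lgr6 rose from 14.6 ± 1.0 CPM in PN to 45.9 ± 1.8 CPM in PCN (log2 fold change 1.65 ± 0.08, adjusted p = 8.80e-16), and Lgr5 fell from 2.62 ± 0.76 CPM in PN to 0.297 ± 0.24 CPM in PCN (log2 fold change -3.10 ± 0.41, adjusted p = 9.24e-07), or -3.78 without PCN replicate 3. Lef1, a transcription factor of the pathway, fell from 19.8 ± 0.39 CPM in PN to 9.90 ± 0.93 CPM in PCN (log2 fold change -0.999 ± 0.11, adjusted p = 1.05e-08), and the receptor gene Fzd7 rose from 19.6 to 43.6 CPM (log2 1.15). YAP-related genes were also split, with 6 higher and 5 lower: Axl rose by log2 1.46, and Fjx1, F3 and Vgll3 fell (log2 -1.33, -1.20 and -1.17).

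Basal keratins moved apart from each other. Krt15 (chromosome 11, 100131758 to 100135928), which marks a basal subset in mouse oesophagus, was at 749, 718 and 726 CPM in the PN libraries and 1601, 1671 and 1660.0 CPM in the PCN libraries, and at 300.4 ± 32 CPM in WT. It was above WT in PN and higher again in PCN (log2 fold change 1.17 ± 0.04, adjusted p = 3.28e-19). Krt14 rose from 1965 ± 81 CPM in PN to 2433 ± 84 CPM in PCN (log2 fold change 0.31 ± 0.04, adjusted p = 1.13e-06), and Krt17 fell from 2681 ± 54 CPM in PN to 1921 ± 90.2 CPM in PCN (log2 fold change -0.48 ± 0.04, adjusted p = 1.89e-10). The change of Krt5 was small (log2 -0.14) and was no longer called without PCN replicate 1, PN replicate 1 or PN replicate 2 (adjusted p = 0.151, 0.112 and 0.0925). Col17a1, a hemidesmosome collagen, rose from 1080.1 ± 22 CPM in PN to 1612 ± 57 CPM in PCN (log2 fold change 0.58 ± 0.04, adjusted p = 3.49e-12) and Itga6 by log2 0.38. In the list, 6 members rose and 3 fell. Krt and Sprr genes have close relatives with which they may share reads.

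Differentiation genes rose in 13 cases and fell in 9. Over all chromosomes, 3 members rose and 2 fell by at least 2-fold, with log2 fold changes from -1.20 to 2.07. Sprr2d rose by log2 1.25, or by 1.88 without PN replicate 1. Krt13 was at 2141, 2007 and 2149 CPM in the PN libraries and 2811, 2856 and 2705 CPM in the PCN libraries, and at 15876 ± 645 CPM in WT, and its partner Krt4 at 2541, 2414 and 2547 CPM in PN and 2211, 2250.1 and 2157 CPM in PCN, and at 11382 CPM in WT. Krt13 rose (log2 fold change 0.41 ± 0.04, adjusted p = 3.33e-09) and Krt4 fell (log2 fold change -0.18 ± 0.04, adjusted p = 7.78e-04), and both were far below WT in the 2 edited groups. Zfp750 and Grhl3, transcription factor genes of late differentiation, rose from 7.37 to 12.5 CPM (log2 0.76) and 19.9 to 29.7 CPM (log2 0.58), against WT means of 97.5 and 119 CPM. Anxa1 and Dmkn rose by log2 0.41 and 0.41. The serine protease genes split: Tmprss11a fell from 227 ± 9.4 CPM in PN to 98.5 ± 7.6 CPM in PCN (log2 fold change -1.20 ± 0.05, adjusted p = 2.35e-16), as did Tmprss11g (log2 -1.20), while Tmprss11b, Tmprss11d and Tmprss11e rose by log2 0.58, 0.79 and 0.76.

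Genes of simple epithelia fell in 6 cases and rose in 1. Besides Krt23, Krt19 fell from 18.0 ± 0.40 CPM in PN to 7.47 ± 1.0 CPM in PCN (log2 fold change -1.27 ± 0.12, adjusted p = 7.45e-10), Krt18 from 36.6 to 19.8 CPM (log2 -0.88), and Gata6 from 14.1 to 7.39 CPM (log2 -0.92). Krt20 was close to 0 in both groups and its call was lost without PN replicate 3 (adjusted p = 0.0581). Of the junction genes, 12 rose and 4 fell: the desmosome genes Dsp, Dsg2 and Pkp1 rose by log2 0.34, 0.42 and 0.23, and the gap junction gene Gjb5 fell (log2 -2.15). The larger changes were mostly falls, with 1 rise and 3 falls of at least 2-fold over all chromosomes.

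Genes of the NRF2 programme, which detoxify electrophiles and keep glutathione reduced, fell in 25 cases and rose in 5. Aldh3a1, an aldehyde dehydrogenase gene, was at 466, 456 and 469 CPM in the PN libraries and 246, 249 and 212 CPM in the PCN libraries, and at 857 CPM in WT (log2 fold change -0.98 ± 0.05, adjusted p = 2.94e-14). Nqo1, a quinone reductase gene, was at 447, 465 and 437 CPM in PN and 321, 321 and 279 CPM in PCN, with 762 CPM in WT (log2 fold change -0.55 ± 0.05, adjusted p = 1.74e-09). Gclc, the rate-limiting enzyme of glutathione synthesis, fell from 258 ± 1.7 CPM in PN to 181 ± 14 CPM in PCN (log2 fold change -0.52 ± 0.05, adjusted p = 1.60e-09), with 577 CPM in WT. For these 3 the order was WT above PN above PCN. Srxn1, Me1 and Cat fell (log2 -0.73, -0.91 and -0.81), and the pentose phosphate genes G6pdx and Pgd (log2 -0.32 and -0.28). Gstm2 rose from 16.9 ± 1.0 CPM in PN to 40.6 ± 1.5 CPM in PCN (log2 fold change 1.26 ± 0.08, adjusted p = 2.58e-13) and Gpx1 by log2 0.31. Slc7a11, the cystine transporter gene, did not pass the test, though it did under 7 of 16 alternatives (log2 -0.13, adjusted p = 0.0509).

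The amino acid response, which ATF4 drives when amino acids are short, fell in 20 genes and rose in 1. Asns, asparagine synthetase, was at 152, 155 and 161 CPM in the PN libraries and 88.8, 105 and 88.9 CPM in the PCN libraries, with 152 CPM in WT (log2 fold change -0.73 ± 0.06, adjusted p = 7.68e-11). Chac1, which degrades glutathione, was at 8.84, 7.72 and 7.67 CPM in PN and 3.17, 3.16 and 3.54 CPM in PCN (log2 fold change -1.29 ± 0.17, adjusted p = 3.87e-07), and Cth, of cysteine synthesis, fell from 29.2 to 16.0 CPM (log2 -0.87). Atf5 and Mthfd2 fell (log2 -0.90 and -0.79), the serine synthesis genes Phgdh and Psat1 (log2 -0.49 and -0.31), and the transporter genes Slc7a5 and Slc3a2 (log2 -0.50 and -0.26). Atf4 itself fell from 221 ± 3.6 CPM in PN to 173 ± 8.8 CPM in PCN (log2 fold change -0.35 ± 0.05, adjusted p = 8.86e-07). For Atf5, Slc7a5 and Phgdh, PN was above WT and PCN lay between them.

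Promoter windows of genes that were lower are shown in the same way, because both programmes have a known motif: TGACNNNGC for NRF2 and TGATGNAA for ATF4 with its partners. TGACNNNGC stood in 5 of 20 windows of the 26 NRF2 and glutathione genes that were lower over all chromosomes, against 12.5% of all windows. TGATGNAA stood in 5 of 19 windows (26.3%) of the 22 such genes of the amino acid response, against 4.06% of all. These lists were also hand-made around the programmes of the factors, so higher shares may follow from their choice alone. Members that were not lower were not scored. A match on the other strand appears below as its reverse complement, in capitals, and the match in Prdx1 also spells TGAGTCA, the AP-1 motif.
Asns (chr6:7693210-7693259, - strand): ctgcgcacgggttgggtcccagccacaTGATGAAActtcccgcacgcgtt
Chac1 (chr2:119351029-119351078, + strand): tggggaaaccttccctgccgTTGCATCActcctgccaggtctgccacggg
Nupr1 (chr7:126625551-126625600, - strand): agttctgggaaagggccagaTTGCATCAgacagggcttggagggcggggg
Prdx1 (chr4:116685446-116685495, + strand): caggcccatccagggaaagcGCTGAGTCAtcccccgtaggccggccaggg
G6pdx (chrX:74428908-74428957, - strand): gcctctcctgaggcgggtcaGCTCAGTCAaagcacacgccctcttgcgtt

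Of the genes of cholesterol and fatty acid synthesis, 18 fell and 5 rose. The desaturase genes Fads2 and Fads1 fell most, from 211 ± 5.8 CPM in PN to 105 ± 5.5 CPM in PCN (log2 fold change -1.01 ± 0.05, adjusted p = 9.01e-16) for Fads2 and with a log2 fold change of -0.61 for Fads1, and the sterol enzymes Cyp51, Msmo1, Nsdhl and Hsd17b7 fell (log2 -0.28, -0.27, -0.37 and -0.47). Fasn and Hmgcs1 rose by log2 0.26 and 0.19. Among genes of eicosanoid metabolism, Hpgd, which degrades prostaglandins, was at 128, 137 and 164 CPM in the PN libraries and 39.2, 42.9 and 35.8 CPM in the PCN libraries, with 7.02 CPM in WT (log2 fold change -1.87 ± 0.09, adjusted p = 2.10e-09). Hpgd was thus highest in PN, as were Ptger3 (log2 -2.87) and Alox5ap (log2 -2.03), whereas Alox12b and Alox15 rose by log2 1.62 and 1.17. Of 17 listed hypoxia and glycolysis genes, 8 rose and 9 fell, with a median of -0.16, which is near the background. The glycolytic genes Pgam1, Ldha, Pgk1, Pkm and Eno1 fell (log2 -0.37, -0.33, -0.32, -0.27 and -0.26). In the other direction, Pfkfb3, Mxi1 and Adm rose by log2 0.41, 0.99 and 1.61.

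Ribosomal protein genes fell by small amounts. Rpl3 was at 1196, 1132 and 1128 CPM in the PN libraries and 883, 899 and 877 CPM in the PCN libraries, with 2049 CPM in WT (log2 fold change -0.38 ± 0.04, adjusted p = 1.39e-08), and Rplp0 fell from 3714 ± 137 CPM in PN to 3195 ± 117 CPM in PCN (log2 fold change -0.22 ± 0.04, adjusted p = 1.39e-04). The 2 listed members of chromosome 14, Rpl15 and Rps24, were higher (log2 0.31 and 0.36), and the 2 of chromosome 12, Rps7 and Rps29, fell most (log2 -1.06 and -1.08). The call of Rps29 was lost in 5 of the 6 settings without 1 library (highest adjusted p = 0.129, without PN replicate 1). The translation factor genes Eef1a1 and Eef2 fell (log2 -0.25 and -0.21). All 21 listed respiratory chain genes fell, between -0.35 for Uqcrq and -0.11 for Atp5b. Calls this small were fragile: that of Atp5b was lost without any 1 of 5 of the 6 libraries (adjusted p of up to 0.252, without PN replicate 1). Calls of many other members were also lost without 1 library, with adjusted p of up to 0.206 among respiratory chain genes and 0.385 among ribosomal protein genes. The counts of falls in both lists thus rest partly on such calls. Ribosomal genes have many processed copies, and 28 processed pseudogenes were lower and 6 higher.

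Cell cycle genes moved little. Of 42 DNA replication genes with counts, 28 were not listed. Outside chromosomes 12 and 14, 12 rose and 1 fell, with a median of 0.21: Rrm1 rose from 381 ± 16 CPM in PN to 497 ± 23 CPM in PCN (log2 fold change 0.38 ± 0.05, adjusted p = 8.36e-08), Tk1 by log2 0.29 and Mcm6 by log2 0.21. Of 38 mitosis genes with counts, 35 were not listed. Foxm1 and Birc5 rose by log2 0.16 and 0.20, and both calls were lost without PCN replicate 2 (adjusted p = 0.141 for each), that of Foxm1 also without PN replicate 2, with TMM over the listed genes and with the replicate block (adjusted p = 0.0885, 0.0589 and 0.0615). In the axis that Cdkn2a controls, the cyclin genes Ccnd2 and Ccnd1 fell, from 719 ± 11 CPM in PN to 514 ± 22 CPM in PCN (log2 fold change -0.48 ± 0.04, adjusted p = 2.72e-10) for Ccnd2 and with a log2 fold change of -0.33 for Ccnd1, while Cdk6 rose from 61.3 to 87.0 CPM (log2 0.50) and E2f7 by log2 0.35. Cdkn1a, a p53 target gene, was at 25.9, 28.5 and 23.4 CPM in PN and 35.5, 34.9 and 32.9 CPM in PCN (log2 fold change 0.41 ± 0.08, adjusted p = 2.20e-04), with 186 ± 10.5 CPM in WT.

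Of the p53 target genes, 5 rose and 4 fell. Fas, a death receptor, rose by log2 2.22 from 0.344 to 1.64 CPM, and by 3.00 without PN replicate 2. Gadd45b rose from 6.88 to 15.1 CPM (log2 1.14) and Zfp365 fell from 21.1 to 13.2 CPM (log2 -0.68). The largest fall of the list was larger, at log2 -1.35, and 2 members rose and 1 fell by at least 2-fold. Of the Notch pathway list, which leaves out Notch1 itself, 4 rose and 1 fell outside chromosomes 12 and 14. Lfng, which adds a sugar to Notch receptors, was at 62.9, 64.0 and 58.0 CPM in the PN libraries and 26.8, 30.4 and 34.4 CPM in the PCN libraries, with 37.1 CPM in WT (log2 fold change -1.01 ± 0.08, adjusted p = 5.05e-11). The ligand genes Dll1 and Jag1 rose from 31.6 to 47.0 CPM (log2 0.57) and 88.4 to 114 CPM (log2 0.37), and the target gene Nrarp by log2 0.37. Adam17 and Numb, which lie on chromosome 12, fell (log2 -0.78 and -0.45).

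Of 21 guidance genes (ephrins, semaphorins and their receptors), 15 rose and 6 fell. Sema3a, a secreted repellent, fell from 3.99 ± 0.67 CPM in PN to 0.383 ± 0.19 CPM in PCN (log2 fold change -3.40 ± 0.33, adjusted p = 1.70e-09), with 0.0897 CPM in WT. Sema4c rose from 116 ± 8.2 CPM in PN to 213 ± 3.9 CPM in PCN (log2 fold change 0.87 ± 0.05, adjusted p = 5.09e-14), Neo1 by log2 0.84, Plxna2 by log2 0.77 and Ephb2 by log2 0.88. Mesenchymal genes were few: Snai2 and Itga5 rose by log2 0.32 and 1.78. Ceacam1 and Icosl, ligands of immune receptors, rose from 23.3 to 42.9 CPM (log2 0.88) and 8.32 to 15.7 CPM (log2 0.92), and Btn1a1 fell from 2.78 to 0.883 CPM (log2 -1.67).

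The deposited tables hold genes that passed a test of the authors, so markers of other cell types without counts there may still be expressed. Of 12 fibroblast markers, 2 had counts: Fbln1 rose from 190.1 ± 3.2 CPM in PN to 284 ± 14 CPM in PCN (log2 fold change 0.58 ± 0.05, adjusted p = 4.37e-11), with 189 CPM in WT, and Fbln2 fell from 2.78 ± 0.40 CPM in PN to 0.435 ± 0.22 CPM in PCN (log2 fold change -2.68 ± 0.35, adjusted p = 3.70e-07). Of 18 leukocyte markers 1 had counts, Cd68, which fell from 25.2 ± 1.6 CPM in PN to 16.1 ± 0.97 CPM in PCN (log2 fold change -0.65 ± 0.09, adjusted p = 2.08e-06). Outside that list, and chosen after their values were seen, the macrophage gene Cd163 rose from 2 counts over PN to 134 over PCN, a ratio of 62.8 with an exact 95% counting interval from 17.1 to 524 (adjusted p = 3.88e-09), with 0.538 CPM in WT. The phagocyte oxidase gene Cybb had 3 counts over PN and 27 over PCN, and the Fc receptor gene Fcgr3 went the other way, with 26 and 2. Neither Cybb nor Fcgr3 passed the filter. None of the 11 muscle and glia markers had counts, and the endothelial marker Esam and the airway marker Cfap43, 1 each, were not listed for this pair. The summed level of the listed chemokines and cytokines was 316.1 to 325 CPM in PN and 439 to 462 CPM in PCN. The part of other cells in these results was not tested.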

How the data were processed

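Total RNA of 9 organoid libraries was sequenced. The deposited tables, 1 per pair of groups, hold the genes that passed an adjusted p of 0.05 in the authors' own test. CASAVA, DESeq and the build GRCm38 (mm10) are named in the submitters' processing notes; which aligner, counter, strand setting and annotation release were used is not given in the sources used here. Counts per gene are raw, per the file headers. The authors also deposited a normalized signal, each count over the size factor of its library. The FPKM values are the authors', per the file headers. The deposited log2 fold change and the deposited p-value were used to recover the number of genes adjusted over (14758, which 91.2% of listed genes give exactly).

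Scaling totals recovered from counts, FPKM and gene length were 16857744, 16979639 and 18912526 in PN and 20198041, 17422590 and 18622057 in PCN. They are not whole numbers, so they are taken as scaled totals and not as read counts. CPM is the count over that total. Counting precision follows from these depths, and intervals and limits from counts of 0 cover counting error only. Replicates differed by more than sampling noise.

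The 3 PN and 3 PCN libraries were fitted with edgeR 4.0.16 in R 4.3.3 (filterByExpr by group, robust quasi-likelihood F test, two-sided), with offsets from those totals and the authors' size factors. Benjamini-Hochberg adjustment ran over 14758 genes, with calls at 0.05. The SE is the size of the change divided by the root of F. The biological coefficient of variation was 0.0505. The genes were listed on the same libraries, so the refit is not independent evidence. Genes listed only in the other pairs have values from a second fit and enter no count of calls. Tested on simulated data of 3533 genes, the fit called 94 of 100 genes changed by 0.5 (log2), 99 of 100 changed by 1 and 6 of 3333 unchanged.

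The 42 gene lists, the naming rule and the members were chosen with earlier results of these data known. Named were the targeted genes and their neighbours, the 15 largest called rises and falls outside chromosomes 12 and 14 and the 6 largest on each of these (protein-coding, no predicted symbols, at least 5 CPM in the higher group, no overlap between libraries), up to 3 members per list, and the 5 most abundant called genes per direction. Other genes named were chosen after their values were seen. Coordinates are those of the tables, and GENCODE M21 holds 3608 of the 3609 identifiers, 96.5% of them at the same start and end. Alternatives were DESeq2 1.42.0, other scalings, filters and adjustments, the added genes, a non-robust dispersion, a replicate block and leaving out each library.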

Additional observations from a re-analysis of the deposited data

How the results depend on the processing

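The counts of higher and lower genes on chromosome 12, on chromosome 14 and on the others were recomputed under 16 alternatives, and all 96 values stayed within 1.5 times the counts reported. Outside chromosomes 12 and 14 the balance turned under 2 of them: TMM scaling over the listed genes gave 1362 higher and 1429 lower, and a minimum of 5 CPM gave 1276 and 1314. No scaling moved the median of all listed genes by over 0.1 (log2). DESeq2 called 3533 genes in all. Without 1 library at a time, 1344 to 1415 genes were higher and 1261 to 1357 lower outside the 2 chromosomes, 21 to 23 and 268 to 272 on chromosome 12, and 315 to 321 and 5 to 6 on chromosome 14.

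The replicate number of the labels does not pair the libraries: deviations of same-numbered PN and PCN libraries correlated at -0.07, -0.11 and -0.07. With the replicate number as a block, 1400 genes were higher and 1325 lower outside the 2 chromosomes, 22 and 272 on chromosome 12, and 321 and 5 on chromosome 14, 3345 called genes in all against 3507.

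Of 311 fitted genes that the text or the naming rule names, none changed direction, and 13 changed their side of the threshold, with 31 lost and 7 gained calls against 4891 that stayed. Slc7a11 gained its calls, and the others, which lost theirs, were Atp5b, Birc5, Bmp4, Foxm1, Gins2, Id2, Krt20, Krt5, Psme2, Rps29, Twist2 and Xaf1. List members that were counted but not named are outside these figures, and some of them lost their calls too. Differences of under about 0.2 (log2) rest on the depth and the small spread between these libraries, and genes that the authors did not list are covered only where another comparison gives their counts.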

Other observations

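Some genes outside the abundance rule had no count, or for Sfmbt2 1 count, in PCN or in PN, whatever their counts in WT. They are given because of that pattern, chosen after their values were seen. Bounds are against 3 counts over the 3 libraries of the group without counts. Gspt2, an X-linked translation termination factor gene, had 125 counts over PN, 79 over WT and none over PCN, at least 44.4-fold lower in PCN. Nkx6-1, a homeobox gene known from pancreas and spinal cord, had 94 counts over PN and none over PCN or WT, at least 33.4-fold lower in PCN. The long noncoding RNA gene Gm26520 of chromosome 12 had 82 counts over PN, 111 over WT and none over PCN, at least 29.1-fold lower in PCN. In the other direction Pdpn, which encodes podoplanin, a membrane mucin of basal squamous cells and lymphatic vessels, had 110 counts over PCN and none over PN or WT, at least 34.4-fold higher in PCN. Sfmbt2, a polycomb group gene, had 210 counts over PN, 117 over WT and 1 over PCN, a ratio of 224 with an exact 95% interval from 39.8 to 8885. Its single count lay in PCN replicate 1, and without that library the group had none.

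Transcription factor genes, by the family given in the authors' deposited table, were mostly higher: of 228 listed, 158 were higher and 67 lower, against 51.0% and 47.9% of all fitted genes. Zinc finger genes of the C2H2 family stood at 43 higher and 11 lower outside chromosomes 12 and 14, whereas homeobox genes stood at 6 and 9. Among single factors, Rora rose from 2.75 to 14.4 CPM (log2 2.39), Trp73, the p53 relative of epithelia, from 3.14 to 8.46 CPM (1.43) and Zbtb7c from 55.3 to 134 CPM (1.27), while Tal2 fell from 35.3 to 10.97 CPM (-1.69) and Pparg from 7.98 to 2.95 CPM (-1.43). WT stood at 2.63 CPM for Rora, 5.28 CPM for Trp73, 36.2 CPM for Zbtb7c, 11.8 CPM for Tal2 and 3.08 CPM for Pparg. Outside chromosomes 12 and 14, the genes that were higher had a median listed length of 4986 bases and those that were lower 3935 bases. The part of gene length in the directions was not tested.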
